A study of Mus musculus with 6 samples.

Results

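The genes followed here serve heme production, heme breakdown and the red cell, in the livers of mice without sphingosine 1-phosphate (S1P) lyase: Alas1, Alas2, Urod and Fech of heme synthesis, Hmox1, Blvra and Blvrb of heme breakdown, and Slc4a1 of the red cell membrane. These 8 genes, of 18193 with a probe set, were read by every probe set (a group of short probes that together report a transcript) whose platform annotation gives exactly 1 symbol equal to one of the 8 names. That selected 15 probe sets of 45101 on the Affymetrix mouse array. S1P lyase, encoded by Sgpl1, breaks down the signalling lipid S1P irreversibly. Liver RNA came from 3 animals labelled S1P lyase knockout and 3 labelled WT (wild type), each hybridised to its own array. Both groups were untreated and had a mixed C57BL6 and 129sv strain background. The labels give no age, sex, litter or batch, and do not say which part of Sgpl1 was deleted or in which cells.

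Heme is an iron-holding ring whose synthesis begins and ends in the mitochondrion. The first step is carried out by 5-aminolevulinate synthase, as Alas1 in most tissues, the liver above all, and as Alas2 in developing red cells. Urod, uroporphyrinogen decarboxylase, works in the cytosol, and Fech, ferrochelatase, inserts the iron in the last step. The liver uses much of its heme in cytochrome P450 enzymes. Liver macrophages also take up old red cells, and Hmox1, heme oxygenase 1, opens the ring to biliverdin, carbon monoxide and iron. Biliverdin is reduced to bilirubin by Blvra, while Blvrb, abundant in red cells, acts on other biliverdin isomers and as a flavin reductase. Slc4a1 encodes band 3, the anion exchanger of the red cell membrane.

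The promoters of both aminolevulinate synthases and of Urod are shown because they set the housekeeping and the erythroid form of an enzyme beside the member that fell on each of its probe sets. Each is the 250 bases before a transcription start, written 5′ to 3′ on the gene's strand, from RefSeq on GRCm38.p6. Capitals mark AGATAA, a motif of GATA factors, CACCC, a motif of KLF factors, and CACGTG, an E-box, on either strand. The motifs were chosen with the results known.
Alas1, chr9:106247955-106248204, minus strand: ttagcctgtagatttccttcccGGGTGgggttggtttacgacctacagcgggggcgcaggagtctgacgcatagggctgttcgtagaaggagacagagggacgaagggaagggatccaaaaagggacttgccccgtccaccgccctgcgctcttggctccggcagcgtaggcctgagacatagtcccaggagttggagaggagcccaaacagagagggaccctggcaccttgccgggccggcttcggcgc
Alas2, chrX:150547167-150547416, plus strand: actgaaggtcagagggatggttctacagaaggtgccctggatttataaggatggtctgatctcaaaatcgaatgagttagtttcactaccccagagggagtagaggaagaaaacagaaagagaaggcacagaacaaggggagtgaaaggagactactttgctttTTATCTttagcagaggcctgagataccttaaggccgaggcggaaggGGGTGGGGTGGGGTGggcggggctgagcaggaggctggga
Urod, chr4:116994414-116994663, minus strand: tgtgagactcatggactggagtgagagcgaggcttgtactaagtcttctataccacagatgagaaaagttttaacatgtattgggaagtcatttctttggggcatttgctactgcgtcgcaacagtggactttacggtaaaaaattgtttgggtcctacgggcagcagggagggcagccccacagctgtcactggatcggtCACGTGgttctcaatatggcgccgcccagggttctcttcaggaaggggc
The Alas2 window held AGATAA once, on the opposite strand 86 bases before the start, and CACCC on the opposite strand 40, 35 and 30 bases before it. The Alas1 window held CACCC once, 228 bases before the start, and neither of the other motifs. The Urod window held CACGTG once, 49 bases before the start. Among 32851 windows of that length in the RefSeq table, 9.99% held AGATAA, 52% held CACCC and 6.02% held CACGTG. The table had entries for 5 of the 8 genes, which leaves Hmox1, Slc4a1 and Fech by name only. The Blvra window held none of these letters, and each Blvrb window held CACCC once.

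Values are deposited log2 signals, and differences are knockout minus WT on that scale. Of the 15 probe sets, 13 had a mean over the 6 arrays at or above the 40th percentile of all probe sets, 3.58 log2, and were tested. The other 2, of Fech and Slc4a1, are called dim. "Rose" and "fell" are used of results with a limma adjusted p under 0.05 over the 27022 probe sets tested, and a gene is read by its brightest tested probe set. Sgpl1 read 2.46, 2.99 and 2.87 log2 in the knockout livers, against 6.65, 6.90 and 6.71 in the WT livers, so that each animal matched its label. Arrays correlated at 0.983 to 0.989 within knockout, 0.978 to 0.982 within WT and 0.941 to 0.954 between genotypes.

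Control signals differed with genotype as well. The poly-A control RNAs, which are added before labelling, were brighter by 0.75 log2 in the knockout arrays over 24 probe sets. Centring used these and 3 probe sets of a tryptophan gene control, 27 in all, over which the gap was 0.66, so each difference is lower by 0.66 on what is called the poly-A scale below. The 3' minus 5' signal, a measure of RNA integrity, was higher in knockout by 0.45 for Actb, 0.47 for Gapdh and 1.01 for Pcx. The median difference of all probe sets tested was -0.71 there, against -0.04 as deposited. On that scale limma weighted its shared variance by 1917 prior degrees of freedom, against 4.25 as deposited, so that the spread of a probe set itself hardly counted. Adjusted p on the poly-A scale are therefore given from each probe set's own variance, a choice made after seeing the data, which called 354 probe sets higher and 11570 lower. With limma's moderation 730 were called higher and 19079 lower there, against 2722 and 2113 as deposited.

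Hmox1 and Slc4a1 rose in the knockout livers, Urod fell, and Alas1, Alas2, Fech, Blvra and Blvrb did not pass the test. Over all 13370 genes tested, 18.2% were called, 10.3% higher and 7.85% lower. The counts of each gene list below are to be read beside these shares. The median difference of the 8 genes was 0.04 log2, against -0.05 over all genes tested. By probe set, 3 of 13 were called higher and 3 lower, where 17.9% of all probe sets tested were called, 10.1% higher and 7.82% lower. Knockout and WT values did not overlap in 7 of the 13 probe sets and in 3 of the 8 genes, against 40% of all probe sets and 40.8% of all genes tested. In whole liver, fewer cells of a type and less RNA per cell cannot be told apart.

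**Figure D1:**
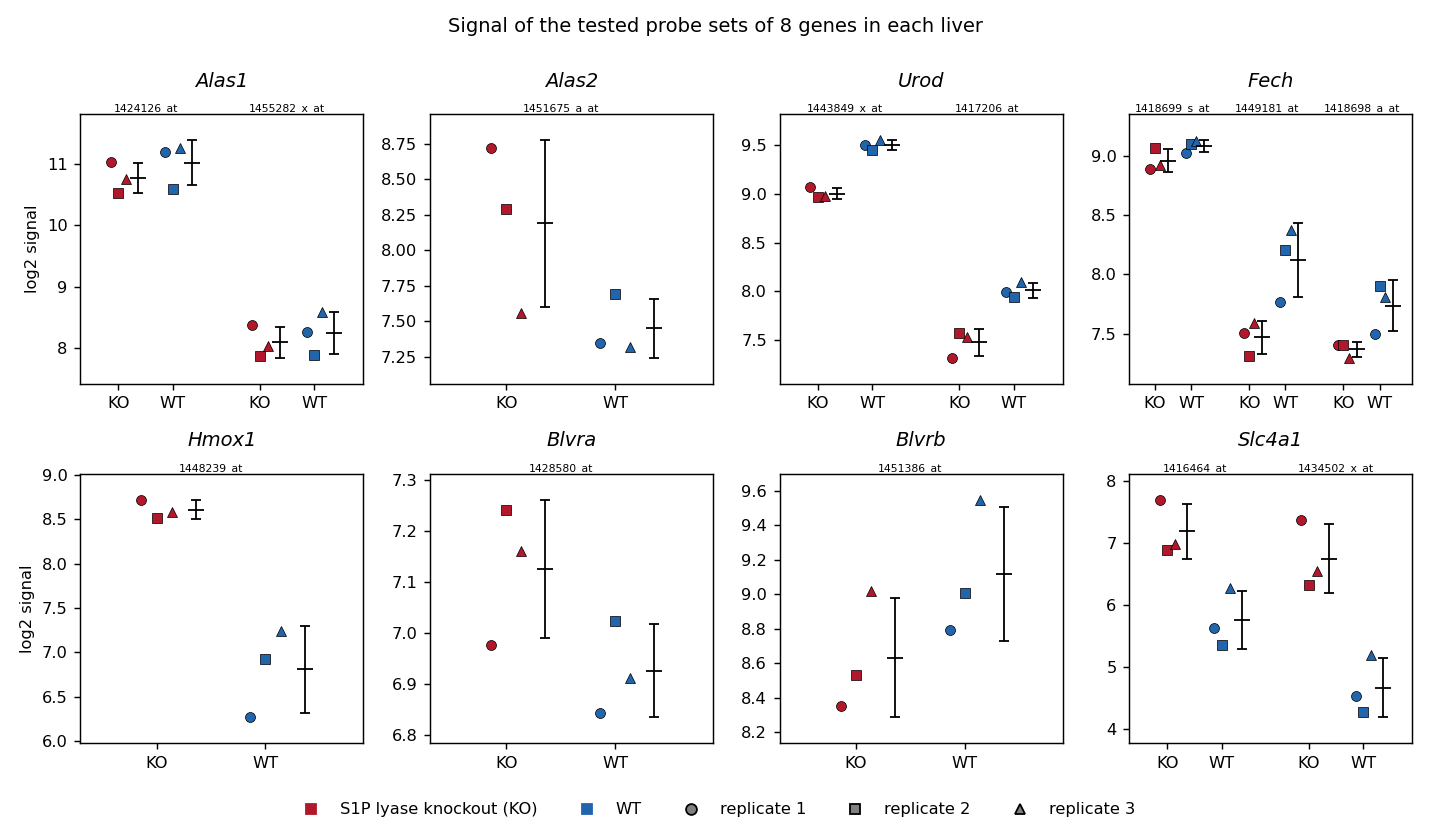
Log2 signal of the 13 tested probe sets of 8 genes in each liver, S1P lyase knockout (KO, red) left of WT (blue), with marker shapes for replicates and mean ± SD beside them (n = 3 each; y axes differ between panels and do not start at 0). Knockout and WT points are apart in Hmox1 and in both probe sets of Slc4a1 and Urod, and overlap in Alas1, Alas2, Blvra and Blvrb.

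**Figure D2:**
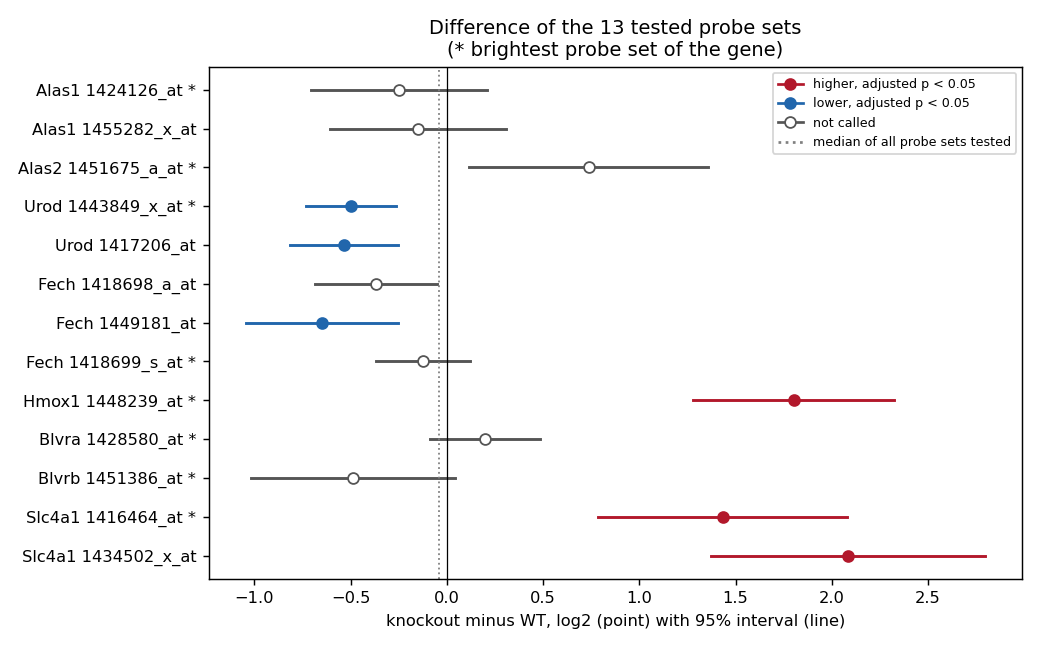
Difference of the 13 tested probe sets, knockout minus WT on the log2 scale, as points with 95% intervals from limma; filled red points were called higher, filled blue points lower and open points not called, and the dotted line is the median of all probe sets tested. Hmox1 and Slc4a1 lie furthest to the right, at 1.43 to 2.08, and the 3 probe sets called lower lie between -0.65 and -0.50.

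Alas1, the rate-limiting enzyme of heme synthesis in the liver, did not pass the test. Its brightest probe set read 11.02, 10.52 and 10.75 log2 in knockout livers, against 11.19, 10.59 and 11.26 in WT livers. The values of the genotypes overlap. The difference was -0.25 (SE 0.20, 95% interval -0.70 to 0.21, limma adjusted p = 0.41). The other Alas1 probe set read 8.37, 7.88 and 8.04 log2 in knockout livers, against 8.25, 7.89 and 8.58 in WT livers, with a difference of -0.15 (limma adjusted p = 0.632). Within each genotype both probe sets put the 3 livers in the same order. On the poly-A scale the brightest was at -0.91 and the other at -0.81, and both were called lower (adjusted p = 0.0448 and 0.0442). On that scale 11570 of the 27022 probe sets tested were called lower.

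Alas2, the erythroid form, was spread widely among the knockout livers. It read 8.72, 8.29 and 7.56 log2 in knockout livers, against 7.35, 7.69 and 7.32 in WT livers. Knockout replicates 1 and 2 lay above all WT livers, and replicate 3 lay within the WT range. The difference was 0.74 (SE 0.27, 95% interval 0.12 to 1.36) and did not pass (limma adjusted p = 0.0952). Without knockout replicate 3 it was 1.05 and passed (limma adjusted p = 0.0113). It was 0.07 on the poly-A scale (adjusted p = 0.799).

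Urod was lower in every knockout liver than in any WT liver. Its brightest probe set read 9.07, 8.96 and 8.98 log2 in knockout livers, against 9.51, 9.45 and 9.55 in WT livers. The SD was 0.05 in each group. Urod fell by 0.50, or 1.41-fold (SE 0.10, limma adjusted p = 0.013). The other probe set read 7.32, 7.57 and 7.53 log2 in knockout livers, against 7.99, 7.94 and 8.10 in WT livers, and fell by 0.53 (SE 0.12, limma adjusted p = 0.0205). Here too the groups did not overlap. The brightest probe set lost its call without knockout replicate 2 (-0.48, limma adjusted p = 0.0582). The other was no longer called when knockout replicate 1, knockout replicate 2 or WT replicate 1 was left out (limma adjusted p of 0.051 to 0.0758).

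The probe sets of Fech, which completes heme, differed from each other in their calls. The brightest read 8.89, 9.06 and 8.92 log2 in knockout livers, against 9.03, 9.10 and 9.12 in WT livers, a difference of -0.12 (95% interval -0.37 to 0.12, limma adjusted p = 0.443). A second probe set read 7.50, 7.31 and 7.59 log2 in knockout livers, against 7.77, 8.21 and 8.38 in WT livers. Its groups did not overlap, and it fell by 0.65 (SE 0.17, limma adjusted p = 0.0359). That call held without WT replicate 1 and was lost without any 1 of the other 5 arrays (limma adjusted p of 0.0514 to 0.125). It was also lost with arrays centred on their medians (-0.62, limma adjusted p = 0.0555). The third read 7.40, 7.40 and 7.30 log2 in knockout livers, against 7.49, 7.90 and 7.81 in WT livers. These groups were apart as well, and the difference of -0.37 did not pass (limma adjusted p = 0.1). The dim probe set read 3.25, 3.38 and 3.23 log2 in knockout livers, against 3.59, 3.30 and 3.44 in WT livers. Whether the higher 3' minus 5' signal of the knockout arrays takes part in this disagreement was not tested, and the sources used here do not say where on the transcript the probes lie. The brightest probe sets of Urod and Fech, and the second ones of Alas1 and Slc4a1, are of types that can also read related transcripts. Among genes named below, the same holds for Foxo1, S100a8, Slc46a1, Srxn1, Ttr, Apoa1, Fth1, Zfyve27 and Tfb1m, and for others where the text says so.

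Of the other enzymes of heme synthesis, Alad, Uros, Ppox and Cpox were tested, 2 fell and none rose, with a median difference of -0.45 log2. Alad, which joins aminolevulinate molecules into a pyrrole, read 9.16, 9.15 and 9.30 log2 in knockout livers, against 9.95, 9.56 and 9.57 in WT livers, and fell by 0.49 (SE 0.14, limma adjusted p = 0.0406). Uros, which makes the substrate of Urod, read 7.04, 6.98 and 7.09 log2 in knockout livers, against 7.55, 7.55 and 7.48 in WT livers, and fell by 0.49 (SE 0.11, limma adjusted p = 0.0189). In both genes all knockout livers lay below all WT livers. Ppox, the oxidase before Fech, was at -0.40 with groups apart and a limma adjusted p of 0.0511, and Cpox was at 0.31 (adjusted p = 0.278). Uros lost its call when knockout replicate 1 or 2, or WT replicate 1 or 2, was dropped (adjusted p of 0.0538 to 0.0761), and Alad when any array but WT replicate 3 was (adjusted p of 0.0551 to 0.129). With probe sets averaged within a gene Uros was at -0.25 (adjusted p = 0.104), while Ppox passed under 7 of the 9 settings that keep all arrays. Both RefSeq windows of Alad and 1 of the 2 of Uros held CACGTG, as that of Urod did, and those of Ppox and Cpox did not. The match of Uros lies 250 bases before the start, at the far edge of its window. The motifs were chosen with the results known, and whether CACGTG has a part in these differences was not tested.

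Of 10 tested genes of mitochondrial transport and of heme or iron-sulfur proteins there, 2 fell and 1 rose (median -0.18 log2). Fam210b, a mitochondrial protein of erythroid heme synthesis, fell by 0.71 (SE 0.12, limma adjusted p = 0.00621). Tmem14c, which brings porphyrinogen into the mitochondrion in erythroid cells, fell by 0.48 (adjusted p = 0.0227). Tspo, a porphyrin-binding protein of the outer membrane, rose by 0.52 (adjusted p = 0.0456) and was at -0.15 on the poly-A scale (adjusted p = 0.57). Abcb6, a porphyrin transporter, was at -0.45 and did not pass. Fam210b kept its call when each array was left out in turn, whereas Tmem14c (adjusted p of 0.0512 to 0.0778) and Tspo (adjusted p of 0.066 to 0.146) kept theirs only without WT replicate 2.

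Of 9 tested regulators of Alas1, 2 rose and 3 fell (median -0.07 log2). Nr1i3, the nuclear receptor CAR that induces Alas1 together with P450 genes, read 7.71, 7.35 and 7.40 log2 in knockout livers, against 8.85, 8.65 and 8.77 in WT livers, and fell by 1.27 (SE 0.14, limma adjusted p = 0.000905). The circadian repressors Nr1d1 and Nr1d2 fell by 1.32 and 0.76 (adjusted p = 0.00837 and 0.0125). Foxo1, a transcription factor active in fasting, rose by 1.20 (SE 0.26, adjusted p = 0.0169). Its call was lost when knockout replicate 1 or 2 was left out (adjusted p of 0.0662 to 0.0673), and it was at 0.63 with its probe sets averaged (adjusted p = 0.053) and 0.53 on the poly-A scale (adjusted p = 0.138). Ppargc1a, a coactivator that induces Alas1 in fasting, also rose, by 1.66 (adjusted p = 0.04), and is named after its values were seen. It was not called without knockout replicate 1, knockout replicate 2, WT replicate 1 or WT replicate 2 (adjusted p of 0.0771 to 0.118), and was at 0.99 on the poly-A scale (adjusted p = 0.158).

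Enzymes of the liver that hold or use heme fell in 8 of 10 tested cases and rose in none, where 7.85% of all genes tested fell and 10.3% rose. Their median difference was -0.76 log2, against -0.05 over all genes tested. Cyp1a2, a P450 of drug metabolism, read 8.90, 9.33 and 10.31 log2 in knockout livers, against 12.43, 11.82 and 11.96 in WT livers, and fell by 2.56 (SE 0.33, limma adjusted p = 0.00194). Cyp7a1, the rate-limiting enzyme of bile acid synthesis, fell 3.99-fold (adjusted p = 0.00214). The catalase gene Cat fell by 0.80 (adjusted p = 0.00162) and Cyp3a11 by 0.53 (adjusted p = 0.0055). All knockout livers lay below all WT livers in each of these 4 genes. Of 9 tested hepatocyte markers 1 was called, Ttr, which fell by 0.29 and lost its call without knockout replicate 2, WT replicate 1 or WT replicate 2 (adjusted p of 0.0626 to 0.0774), with quantile normalization or without the intensity trend (adjusted p = 0.0503 and 0.0832). Apoc3 and Apoh, of plasma lipoproteins and plasma, were at -0.21 and -0.19 and did not pass, and the summed linear signal of the 9 was 96862 to 101574 in knockout and 104562 to 107390 in WT. Alb and Apoa1, named after their values were seen, were the brightest of the 9 and weigh most in that sum. They averaged 14.28 and 14.27 log2 in knockout, against 14.32 and 14.28 in WT. The part of hepatocyte content in these differences was not tested.

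Hmox1 was higher in every knockout liver than in any WT liver. Its single probe set read 8.72, 8.51 and 8.59 log2 in knockout livers, against 6.27, 6.92 and 7.24 in WT livers. The knockout livers lay close together, with an SD of 0.11 log2, and the WT livers were spread more widely, with an SD of 0.49. Hmox1 rose by 1.80, or 3.48-fold (SE 0.23, 95% interval 1.28 to 2.32, limma adjusted p = 0.00184). The difference was 1.53 to 2.01, and still called, with each array left out in turn. It was 1.14 on the poly-A scale (adjusted p = 0.0465).

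Markers of macrophages, which express Hmox1, and of neutrophils also differed between the genotypes. Of 15 macrophage and Kupffer cell genes 7 rose and 3 fell, and the summed linear signal of the list was 6720 to 7535 in knockout and 3497 to 5435 in WT. Marco, a scavenger receptor, rose by 3.02 log2, the lysozyme gene Lyz2 by 2.70 and the adhesion molecule gene Vcam1 by 1.95 (limma adjusted p of 2.72e-05, 9.08e-05 and 0.000312). Vsig4, Clec4f and Timd4, which mark resident Kupffer cells, were the 3 that fell, by 2.30, 2.82 and 1.32. Resident macrophages also express Marco and Cd5l, and Cd5l rose by 1.15 (adjusted p = 0.0186), without a call when knockout replicate 1, knockout replicate 2 or WT replicate 1 was left out (adjusted p of 0.0608 to 0.0749). The complement genes C1qa, C1qb and C1qc and the pan-macrophage marker Adgre1 were at -0.08, 0.13, 0.22 and 0.30 and did not pass. Vsig4, Clec4f, Timd4, Cd5l, the C1q genes and Adgre1 are named after their values were seen. Spic, a transcription factor of iron-recycling macrophages that heme induces, read 5.93, 5.80 and 5.72 log2 in knockout livers, against 4.68, 5.27 and 5.01 in WT livers, and rose by 0.83 (adjusted p = 0.0115), and was likewise chosen afterwards. Without knockout replicate 1 its adjusted p was 0.0503. Spic was read on a probe set of a type that can also read related transcripts. Cd5l was at 0.49 on the poly-A scale (adjusted p = 0.314), and Spic at 0.17 (adjusted p = 0.491). Of 12 neutrophil genes 11 rose, with summed signals of 13712 to 15408 in knockout and 592 to 732 in WT. S100a8, S100a9 and Ngp, of neutrophil cytosol and granules, rose by 5.17, 4.94 and 4.76 log2. Whether a marker of either list, such as Lyz2, was read from cells of the other type was not tested. Nor was the part of macrophages and neutrophils in the Hmox1 difference.

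Blvra and Blvrb, the enzymes after Hmox1, did not pass the test. Blvra read 6.98, 7.24 and 7.16 log2 in knockout livers, against 6.84, 7.02 and 6.91 in WT livers, a difference of 0.20 (SE 0.12, 95% interval -0.09 to 0.48, limma adjusted p = 0.292). Knockout replicates 2 and 3 lay above all WT livers, and replicate 1 lay between WT replicates 3 and 2. Blvrb read 8.35, 8.53 and 9.02 log2 in knockout livers, against 8.80, 9.01 and 9.55 in WT livers, a difference of -0.49 (SE 0.23, 95% interval -1.01 to 0.04, limma adjusted p = 0.179). Its knockout and WT values overlap. On the poly-A scale Blvra was at -0.46 (adjusted p = 0.142) and Blvrb at -1.15 (adjusted p = 0.0739).

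Among partners of heme breakdown and carriers that dispose of bilirubin, 2 of 5 tested fell and none rose (median 0.09 log2). Slco1a4, an uptake transporter of organic anions, fell by 1.44 (SE 0.20, limma adjusted p = 0.00261). Slco1b2, a hepatocyte transporter that also takes up bilirubin, fell by 0.57 (SE 0.11, adjusted p = 0.0108). Hmox2, the constitutive heme oxygenase, read 8.68, 8.85 and 8.85 log2 in knockout livers, against 8.44, 8.38 and 8.52 in WT livers. It did not overlap between genotypes and did not pass, at a difference of 0.34 (adjusted p = 0.0673). Abcc3, a basolateral exporter of bilirubin conjugates, was at 0.52 (adjusted p = 0.0786) and passed without WT replicate 3 (adjusted p = 0.0421).

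Genes for the capture and transport of heme and haemoglobin changed in both directions: 3 of 12 rose and 3 fell, with a median difference of 0.00084 log2. The plasma proteins that bind free haemoglobin and free heme, haptoglobin (Hp) and hemopexin (Hpx), are also acute phase proteins. Hp rose by 0.82 log2 (SE 0.07, limma adjusted p = 0.000374) and Hpx by 0.54 (SE 0.07, adjusted p = 0.00224), and on the poly-A scale they were at 0.16 and -0.12 (adjusted p = 0.443 and 0.577). Flvcr1, a heme exporter, read 5.89, 5.64 and 6.14 log2 in knockout livers, against 4.84, 4.76 and 5.13 in WT livers, and rose by 0.98 (SE 0.17, adjusted p = 0.0061), and was at 0.32 on the poly-A scale (adjusted p = 0.337). Pgrmc1, a heme-binding membrane protein, fell by 0.73 (adjusted p = 0.00191). Named after their values were seen, Slc46a1, a folate and heme carrier, fell by 0.92 and Cd163, the macrophage receptor for haemoglobin bound to haptoglobin, fell by 2.02. Cd163 averaged 3.21 ± 0.10 log2 in knockout, under the level taken as dim, and 5.24 ± 0.85 in WT (SD, n = 3 each).

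BACH1 is the repressor that heme removes from the Hmox1 gene, and NRF2 (Nfe2l2) is an activator of it. Of 14 tested genes of these factors and their targets, 4 rose and 4 fell (median 0.10 log2). Bach1 read 7.97, 7.94 and 8.04 log2 in knockout livers, against 6.98, 6.86 and 7.16 in WT livers, and rose by 0.98 (SE 0.12, limma adjusted p = 0.00173), and was at 0.32 on the poly-A scale (adjusted p = 0.188). Keap1, which holds NRF2 back, rose by 0.77 (adjusted p = 0.0103), and Maff, a small partner protein of both factors, by 0.64 (adjusted p = 0.014). Gclc, the catalytic subunit of the first enzyme of glutathione synthesis and an NRF2 target, fell by 0.63 (adjusted p = 0.011). Gclm, Me1 and Nqo1, also known NRF2 targets, fell by 0.68, 2.17 and 0.70 (adjusted p = 0.0142, 0.0276 and 0.0361). Me1 was not called without knockout replicate 1 or 2 (adjusted p of 0.0911 to 0.0949) or on the poly-A scale (-2.83, adjusted p = 0.053), and Nqo1 was called only without WT replicate 1 when an array was left out (adjusted p of 0.0574 to 0.122 without another). Other known targets, Srxn1, Txnrd1, Gsr and Osgin1, were at 0.28, -0.15, -0.07 and -0.70 and did not pass, nor did Nfe2l2 itself at 0.28 (adjusted p = 0.504). These 7 targets besides Gclc, and Nfe2l2, are named after their values were seen. Keap1 was at 0.33 with its probe sets averaged (adjusted p = 0.14) and 0.10 on the poly-A scale (adjusted p = 0.439). Maff was not called when knockout replicate 1 or 2 was left out (adjusted p of 0.0563 to 0.0579), and was at -0.026 on the poly-A scale (adjusted p = 0.747).

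Of 7 tested genes of iron storage, export, uptake and sensing and of hepcidin, 3 rose and 1 fell (median -0.15 log2). Fth1, a ferritin subunit, and Slc40a1, the iron exporter, are named after their values were seen. They were at -0.25 and -0.15 and did not pass (limma adjusted p = 0.108 and 0.722). Tfrc, the transferrin receptor, by which cells take up iron, read 10.85, 10.35 and 9.83 log2 in knockout livers, against 8.46, 7.27 and 9.34 in WT livers, and rose by 1.99 (SE 0.48, limma adjusted p = 0.0247). Cp, the ferroxidase ceruloplasmin, rose by 1.09 (adjusted p = 0.000235) and Tfr2, an iron sensor of hepatocytes, by 0.65 (adjusted p = 0.0228), with Cp at 0.43 on the poly-A scale (adjusted p = 0.15) and Tfr2 at -0.018 (adjusted p = 0.892). Hamp2, of the hepcidin family, fell by 4.06 (SE 0.76, adjusted p = 0.00936). Hamp2 and Tfr2 were each read on a probe set of a type that can also read related transcripts. Hamp, the hepcidin gene itself, named after its values were seen, read 6.67, 8.51 and 11.30 log2 in knockout livers, against 10.19, 12.24 and 8.41 in WT livers. Its groups overlap, and the difference of -1.46 did not pass (adjusted p = 0.429). Tfrc was not called without knockout replicate 1, knockout replicate 2 or WT replicate 1 (adjusted p of 0.0627 to 0.0922), nor with its probe sets averaged (1.11, adjusted p = 0.104), and was at 1.32 on the poly-A scale (adjusted p = 0.123). Tfr2 was not called without knockout replicate 1, knockout replicate 2 or WT replicate 2 (adjusted p of 0.0611 to 0.0826).

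Slc4a1, the red cell anion exchanger, was higher in every knockout liver than in any WT liver. Its brightest probe set read 7.70, 6.88 and 6.98 log2 in knockout livers, against 5.63, 5.36 and 6.27 in WT livers. Knockout replicate 1 and WT replicate 3 were the highest of their groups. Slc4a1 rose by 1.43, or 2.70-fold (SE 0.28, 95% interval 0.79 to 2.08, limma adjusted p = 0.0114). The second probe set read 7.37, 6.32 and 6.55 log2 in knockout livers, against 4.54, 4.27 and 5.19 in WT livers, and rose by 2.08 (SE 0.31, limma adjusted p = 0.00375). It put the livers of each genotype in the same order as the first. The dim probe set read 3.37, 3.30 and 3.04 log2 in knockout livers, against 3.66, 3.46 and 3.37 in WT livers. Both calls held with each array left out in turn, at 1.18 to 1.69 and 1.77 to 2.35, but on the poly-A scale the first was at 0.77 and not called (adjusted p = 0.0851), while the second was at 1.42 and called (adjusted p = 0.0404). Knockout replicate 1, the highest in Slc4a1 and Alas2, was also the highest in the poly-A controls, at a mean of 9.07 log2 beside 8.75 and 8.52 in knockout replicates 2 and 3, and their part in its values was not tested.

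In 3 lists of other erythroid genes, given here and below, 12% of those tested were called, against 18.2% of all genes tested. Several lay little above the level taken as dim, 3.58 log2. Epb42 averaged 3.78 log2 in knockout and 3.61 in WT, Cldn13 4.15 and 3.98, and Hba-x 3.85 and 3.74. Others were brighter, such as Bpgm at 6.88 and 6.85. Of 11 tested genes of the red cell membrane and its skeleton none was called by limma, and 0 had an unadjusted p under 0.05. Their median difference was 0.06 log2, with values from -0.21 for Sptb, beta spectrin, to 0.25 for Rhd, of the Rhesus complex. Cldn13 and Epb42, the band 4.2 protein that binds band 3, were at 0.16 and 0.17. Rhag, Kel, Mfsd2b and Icam4 had dim probe sets only. Of 4 tested globin and cytosolic genes 1 was called: Car1, a carbonic anhydrase of red cells and colon, fell by 0.92 (SE 0.14, adjusted p = 0.00457). Car1 read 3.82, 3.64 and 3.72 log2 in knockout livers, close to the dim level, against 4.89, 4.64 and 4.39 in WT livers. Hbb-b2, a beta globin, read 7.21, 6.63 and 6.44 log2 in knockout livers, against 6.54, 6.46 and 6.56 in WT livers, a difference of 0.24 (adjusted p = 0.417), with knockout replicate 1 again the highest. Hba-x and Bpgm, which makes a regulator of oxygen release, were at 0.12 and 0.04. The globins Hba-a1, Hba-a2, Hbb-bh1 and Hbb-y had dim probe sets only, with means of 2.67, 3.04, 3.36 and 3.09 log2 in knockout, against 2.88, 3.25, 3.74 and 3.58 in WT. Probe sets annotated with several globin symbols were not used, and that of Hbb-b2 is of a type that can also read related transcripts. On the poly-A scale Cldn13, Epb42, Hba-x and Bpgm were at -0.63 to -0.49.

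Of 10 tested erythroid regulators and receptors 2 rose and none fell (median 0.16 log2). Nfe2, a transcription factor of red cells and megakaryocytes, read 5.66, 5.62 and 5.36 log2 in knockout livers, against 3.32, 3.56 and 3.52 in WT livers, and rose by 2.08 (SE 0.13, limma adjusted p = 8.34e-05). Its 3 WT values lie under 3.58, the level taken as dim, so the size of the difference rests on a dim WT signal. It was 1.42 on the poly-A scale (adjusted p = 0.0278). Lmo2, a cofactor of blood-forming cells and endothelium, read 7.73, 7.62 and 7.31 log2 in knockout livers, against 6.66, 6.70 and 6.29 in WT livers, and rose (SE 0.16, 95% interval 0.62 to 1.38, adjusted p = 0.00541). Lmo2 was at 0.34 on the poly-A scale (adjusted p = 0.145). Hemgn, an erythroid nuclear protein, was dim. Klf1, the erythroid Krüppel-like factor, and Zfpm1, the GATA partner FOG1, were at -0.43 and -0.39 and did not pass. Over the 3 erythroid lists together, 25 genes were tested, 2 rose and 1 fell, or 12% called, against 18.2% of all genes tested. The mean level of the 25 genes was 5.12, 5.10 and 5.04 log2 in the knockout arrays, against 5.03, 4.98 and 4.93 in the WT arrays.

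Markers of megakaryocytes and platelets, and of proliferating cells of any type, differed in the same arrays. Of 5 megakaryocyte and platelet markers 2 rose, Ppbp by 3.73 log2 and Pf4 by 2.65, both platelet chemokines. Itga2b, a platelet integrin, was at 0.42 and did not pass (adjusted p = 0.105). Gp9 and Gp1bb, named after their values were seen, were at 0.41 and -0.24 and did not pass. In Gp1bb all knockout livers lay below all WT livers. The summed linear signal of the 5 was 580 to 1155 in knockout and 205 to 271 in WT. Ppbp and Pf4 were the brightest of the 5 in knockout and weigh most in that sum there. Of 5 markers of proliferating cells 2 rose, Mki67 by 1.89 and Top2a by 1.75 (not called on the poly-A scale, at 1.08, adjusted p = 0.0806), while Birc5, a mitotic protein, was at 0.97 and did not pass (adjusted p = 0.107), with summed signals of 381 to 586 in knockout and 174 to 269 in WT. The summed signal of the red cell membrane list was 379 to 404 in knockout and 367 to 407 in WT. The part of platelets, megakaryocytes or proliferating cells in the Slc4a1, Alas2 and Nfe2 differences was not tested.

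**Figure D3:**
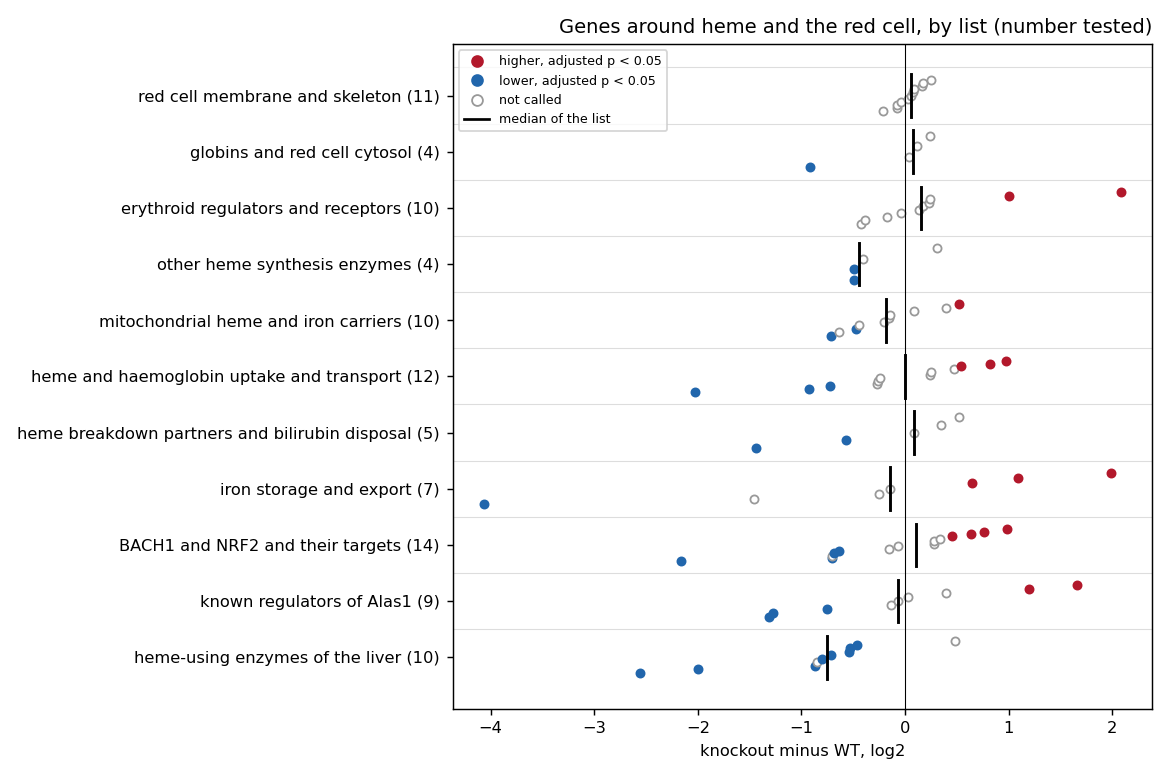
Difference of each tested gene of the 11 lists around heme and the red cell, knockout minus WT on the log2 scale, 1 point per gene read by its brightest probe set (red called higher, blue called lower, open not called), with the list median as a black bar. The 11 genes of the red cell membrane and skeleton lie between -0.21 and 0.25, and the heme-using enzymes have their median at -0.76.

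As a description of pattern over the 6 arrays, the 3 genes with the highest Pearson correlation were taken for 4 of the members from 13369 others. For Hmox1 these were Stk38, a kinase, Nek7, a kinase of the inflammasome, and Cd55, a complement inhibitor of the cell surface (r of 0.998 to 0.999). For Slc4a1 they were Nsa2, Tspan3 and Rbmx (r of 0.992 to 0.998), for Alas2 Ncapg, Elf2 and Rpl27a (0.988 to 0.995), and for Alas1 Zfyve27, Tfb1m and Elavl2 (0.975 to 0.988). The 6 arrays share the genotype contrast, and the genes were the closest of many. On the poly-A scale Stk38 was at -0.13 and Nsa2 at -0.20, against 0.53 and 0.47 as deposited, and Cd55 at 0.23, against 0.90.

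**Figure D4:**
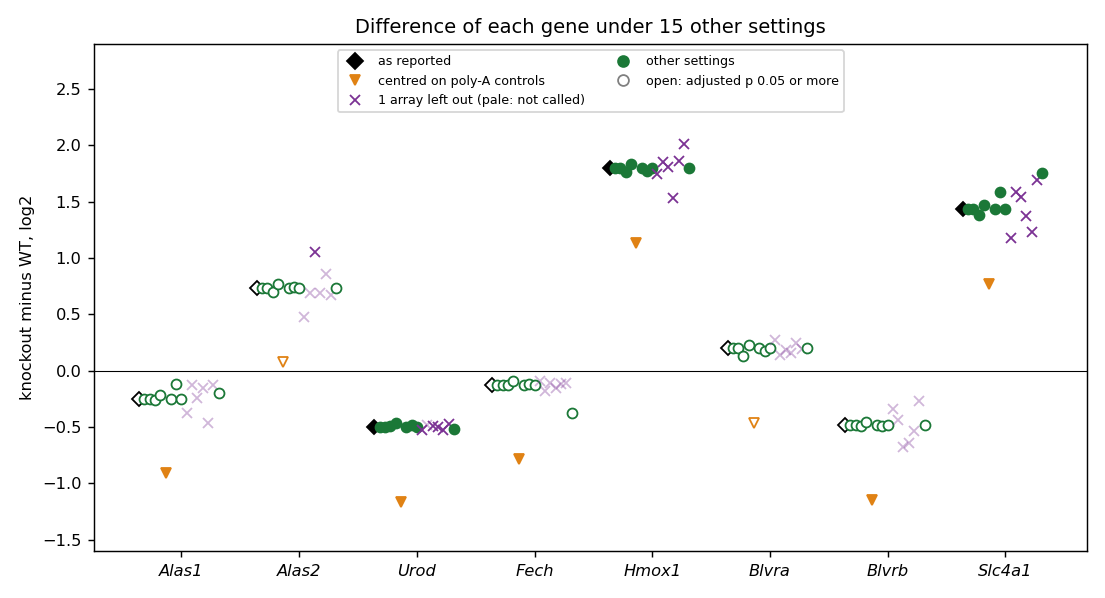
Difference of each gene, knockout minus WT on the log2 scale, as reported (black diamond) and under 15 other settings. Genes are read by their brightest probe set, except in the setting that averages the probe sets of a gene. Open symbols and pale crosses have an adjusted p of 0.05 or more. Hmox1 and Slc4a1 stay above 0 and called in each of the 15, with limma's moderation, and the poly-A scale lowers the values, to 1.14 for Hmox1 and -1.16 for Urod.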

How the data were processed

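Liver RNA of 3 S1P lyase knockout and 3 WT mice was measured on 1-colour Affymetrix arrays, grouped by the genotype label. The log2 signals are as deposited, 1 per probe set and array, with MAS5 named per the submitters' processing notes. The log2 scale was judged from the range of the values, and background correction and summarization are unknown. If background was left in, the differences of dim genes are understated. Array number, not depth, limits precision.

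From these values knockout and WT were tested against each other in limma 3.58.1 under R 4.3.3 (lmFit, eBayes with an intensity trend, two-sided), with Benjamini-Hochberg adjustment over the 27022 non-control probe sets whose mean reached the 40th percentile. A gene was read by its brightest tested probe set with 1 symbol. Of 45101 probe sets, 9211 had no symbol, 932 had several and 34958 had 1, and 34754 of the last matched GRCm38.p6 by gene identifier.

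The members and the 11 pathway and 5 marker lists were chosen with earlier results of these data known. The text names all members, the 4 genes of each pathway list and the 3 of each marker list with the smallest p, and others where it says so. In all, 15 other settings were tried: other filters, quantile, median or poly-A centring, no trend, array weights, gene-level fits, and each array left out. A fit on poly-A centred arrays with each probe set's own variance was added after seeing the data.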

Additional observations from a re-analysis of the deposited data

How the results depend on the processing

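Hmox1 and Slc4a1 kept their direction and call under the 15 listed settings, at 1.14 to 2.01 and 0.77 to 1.76 log2, and Urod under 14 of 15, the exception being the fit without knockout replicate 2. The 1.76 of Slc4a1 is from the fit with its probe sets averaged. The brightest Slc4a1 probe set lost its call in the fit on poly-A centred arrays with each probe set's own variance (0.77, adjusted p = 0.0851), which was added after seeing the data. The poly-A scale moved the most, by its construction as 1 shift of each array. On it, with limma's moderation, 11 member probe sets were called, 8 of them lower, and 6 member genes, 4 of them lower, with Blvrb at -1.15 (no longer called with its own variance), Alas1 at -0.91 and Fech at -0.79, and 12 member probe sets did not overlap, against 73.8% of all tested there. Calls on that scale were 10 of the red cell membrane, 3 of the globin and cytosol, 6 of the erythroid regulator, 8 of the mitochondrial and 8 of the Alas1 regulator genes. With own variances 9 member probe sets were called, 7 of them lower, and 4 member genes, 1 higher and 3 lower, and 3 of the red cell membrane, 4 of the globin and cytosol, 6 of the mitochondrial, 2 of the iron and 3 of the BACH1 and NRF2 genes. Among results called in at least 1 of these fits or as deposited, signs reversed for Cldn13 (-0.50), Epb42 (-0.49), Hba-x (-0.55), Bpgm (-0.63), Tspo (-0.15), Hpx (-0.12), Tfr2 (-0.018), Maff (-0.026), Stk38 (-0.13), Nsa2 (-0.20), Tspan3 (-0.53), C1qb (-0.54), Hbb-b2 (-0.43) and Rbmx (-0.47). Another 14 named genes, called in none of them, also changed sign, to between -0.46 (Blvra) and -0.044 (Elf2). Without a filter on dim probe sets, 1 red cell membrane, 2 globin and cytosol and 1 other heme synthesis gene were called, and with the filter at the 60th percentile 0 globin and cytosol genes and 1 erythroid regulator, fewer genes being tested. Over all probe sets tested, 4723 were called without a filter and 4165 with the filter at the 60th percentile. With array quality weights 4 breakdown partners were called, and the cause was not tested.

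With 1 array left out at a time, 3 to 6 member probe sets were called, 3 to 4 higher and 0 to 2 lower, and 2 to 4 member genes, 2 to 3 higher and 0 to 1 lower, while 7 to 10 probe sets did not overlap, where 46.9% to 54% of all tested did not. Alas2 was at 0.47 to 1.05 and Urod at -0.53 to -0.47. The calls were 0 to 2 other heme synthesis enzymes, 1 to 3 mitochondrial genes, 2 to 5 iron genes, 4 to 7 BACH1 and NRF2 genes and 3 to 5 Alas1 regulators. Over all probe sets, 2517 to 4639 were called with an array left out, against 4835 with all 6, 19809 on the poly-A scale, and 2482 and 2402 in the gene-level fits, which test fewer features and give no probe set values. No paired analysis was possible because the labels number the animals and give the groups no shared replicate numbers.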
